A study of Bos taurus with 64 samples.

Results

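HIF1A and VEGFA were followed in the longissimus thoracis (LT), a support muscle of the back, and the semitendinosus (ST), a locomotion muscle of the hind limb, of 32 Normand cows of 4.5 years of age. Both genes were found by their gene name among the non-control probes of a custom bovine array, and they are 2 of the 5449 transcripts that the array names. All cows were finished for 101 days on a ration rich in linseed and rapeseed lipids, given alone (control diet) or with vitamin E and polyphenol-rich plant extracts (EP diet). The stressed cows were transported in isolation and spent 30 min in a labyrinth on an unknown farm before slaughter, and the others were handled with limited stress. Each of the 8 groups of muscle, stress and diet held 8 cows, and the cow number of the labels ties the LT and the ST of an animal. Muscle was sampled within 15 min of slaughter, so limited stress is the nearest state to rest in this design. The tissue is whole muscle, where fewer cells of a type and less RNA per cell cannot be told apart.

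HIF1A encodes the oxygen-regulated subunit of hypoxia-inducible factor 1, a transcription factor that is controlled mainly through the stability of its protein. VEGFA is a classical target of this factor and the main growth signal for blood capillaries. In skeletal muscle, VEGFA is also driven by the coactivator PPARGC1A with its partner receptors of the ESRR family, and oxidative muscles carry denser capillary beds than glycolytic ones. The messenger of HIF1A therefore need not follow the activity of the factor, and the abundance of both messengers was what the array measured.

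Each member was measured by 1 probe of 60 bases, spotted once per array. The first 30 bases are shown 5′ to 3′ because the levels below rest on these probes alone.
HIF1A probe: ggatcttctaacactaactgtattgttttg
VEGFA probe: ctaaatcaccgagcccggaagattagagag

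The HIF1A probe starts at base 3863 of the transcript (bovine gene ID 281814) and was placed by the array design at chr10:76002492-76002550. The VEGFA probe starts at base 1399 of its transcript (gene ID 281572), at chr23:17910983-17911042. Both positions refer to the build HGSC Btau_3.1 named in the file headers, and the exon or untranslated region at these positions was not looked up here. No other probe of the array shared 25 consecutive bases with either of them, on either strand. Both probes were well above background on all 64 arrays, without a saturated or outlier spot.

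Levels are given as the log2 of the signal over the 75th percentile of the spots of the array, so they are negative for probes dimmer than this percentile. This percentile lay between 2760 and 3988 signal units on the LT arrays and between 2470 and 4202 on the ST arrays. From 71.4 to 80.9% of the spots were well above background. No slide carried both muscles, with 4 slides for the LT and 5 for the ST, so the slide and the muscle cannot be told apart except by the spread between slides. The call of a transcript required an adjusted p under 0.1 in 1 direction for 80% or more of its tested probes. The fits between the muscles did not use the pairing of a cow's muscles, except where the cow is named as a block.

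VEGFA was more abundant in the LT than in the ST of cows handled with limited stress. Its level in the LT was -3.34 at the lowest, -3.05 at the median and -2.75 at the highest of 16 cows. In the ST, the lowest, median and highest levels were -4.59, -3.72 and -3.18. The ranges overlapped, but the median of the ST lay below the lowest value of the LT. The LT level was above the ST level in 15 of the 16 animals, with a paired difference between -0.14 and 1.59 and a median of 0.66. VEGFA was 1.66-fold higher in the LT (log2 fold change 0.73, SE 0.15, 95% CI 0.42 to 1.04, limma adjusted p = 0.000133). In this comparison 16% of the 4327 transcripts tested were called higher and 22.1% lower in the LT (38.1% in all), so a call between the muscles was common. With the slide as a random block, the difference was 0.78 (adjusted p = 0.000547).

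The difference at limited stress was found on both diets. On the control diet, VEGFA was higher in the LT of all 8 cows, 1.59-fold on average (log2 fold change 0.67, SD of the paired differences 0.39, adjusted p = 0.0227), where 9.27% of transcripts were called higher. On the EP diet it was higher in the LT of 7 of 8 cows, 1.73-fold (0.79, SD 0.54, adjusted p = 0.00732), beside 7.97% of transcripts. Both adjusted p came from the fit that did not use the pairing. The contrast of both differences was 0.23 when taken over the stress groups (95% CI -0.20 to 0.67, unadjusted p = 0.285), where no transcript was called (0%) and 53 of 10492 probes had an unadjusted p under 0.05. A diet effect on the gap between the muscles was not detected.

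In stressed cows, VEGFA was 1.46-fold higher in the LT (log2 fold change 0.54, SE 0.15, 95% CI 0.23 to 0.85, adjusted p = 0.00447), where 15.9% of transcripts were called higher and 20% lower (35.8% in all). The LT was above the ST in 13 of 16 animals. The LT levels ran from -3.96 through a median of -3.12 to -2.36, and the ST levels from -4.62 through -3.73 to -2.69. Both ranges were wider than under limited stress, with an SD of 0.45 against 0.17 in the LT and 0.61 against 0.40 in the ST. On the EP diet, the LT exceeded the ST in all 8 stressed cows (0.71, adjusted p = 0.0157, beside 9.64% of transcripts). On the control diet it did so in 5 of 8 and the difference was not called (0.37, 95% CI -0.07 to 0.80, adjusted p = 0.276, beside 5.75% of transcripts). With the median of the control features as the scaling, the difference over both diets kept its size but was not called (0.59, adjusted p = 0.110).

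By the main scaling, HIF1A was measured at about the same level in both muscles. Under limited stress its LT levels were -4.00, -3.40 and -2.98 at the lowest, median and highest, and its ST levels -3.79, -3.42 and -2.93. These ranges coincided nearly end to end. HIF1A was higher in the LT of 8 of 16 cows, and the log2 fold change was -0.03 (SE 0.11, 95% CI -0.25 to 0.19, adjusted p = 0.847). Stressed cows gave -0.01 (95% CI -0.22 to 0.21, adjusted p = 0.977), again with the LT above the ST in 8 of 16. The interval at limited stress ran from 0.842-fold to 1.14-fold in the LT relative to the ST. These limits hold for the main fit only. The estimate at limited stress was 0.29 with the control features and 0.15 on unscaled arrays, neither of them called. The sign of these values near 0 thus changed with the scaling.

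**Figure D1:**
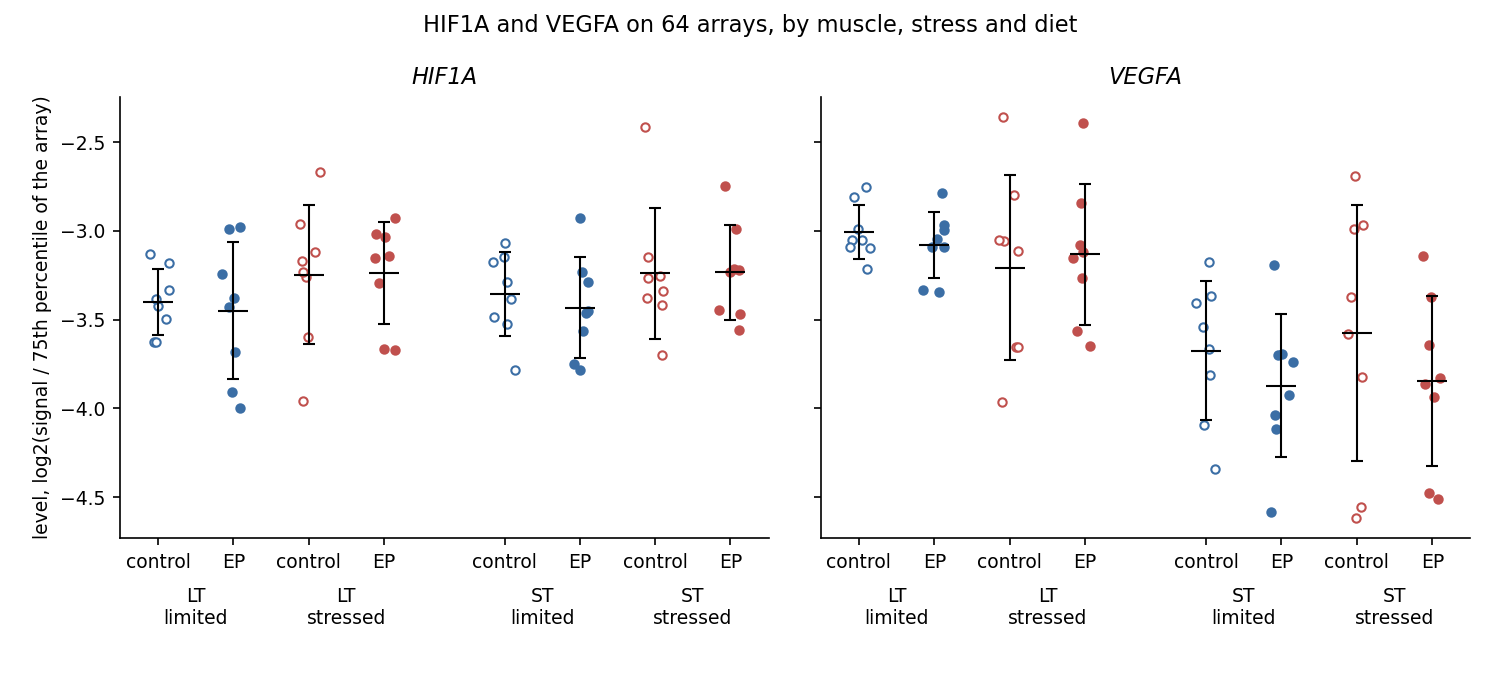
Levels of HIF1A (left) and VEGFA (right) on 64 arrays as log2 of the signal over the 75th percentile of the array, by muscle, stress and diet, with blue for limited stress, red for stressed, open points for the control diet, filled points for the EP diet, and the mean and SD of 8 cows in black. VEGFA sits higher in the LT than in the ST, with medians of -3.05 and -3.72 under limited stress, whereas the ranges of the HIF1A groups overlap throughout.

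**Figure D2:**
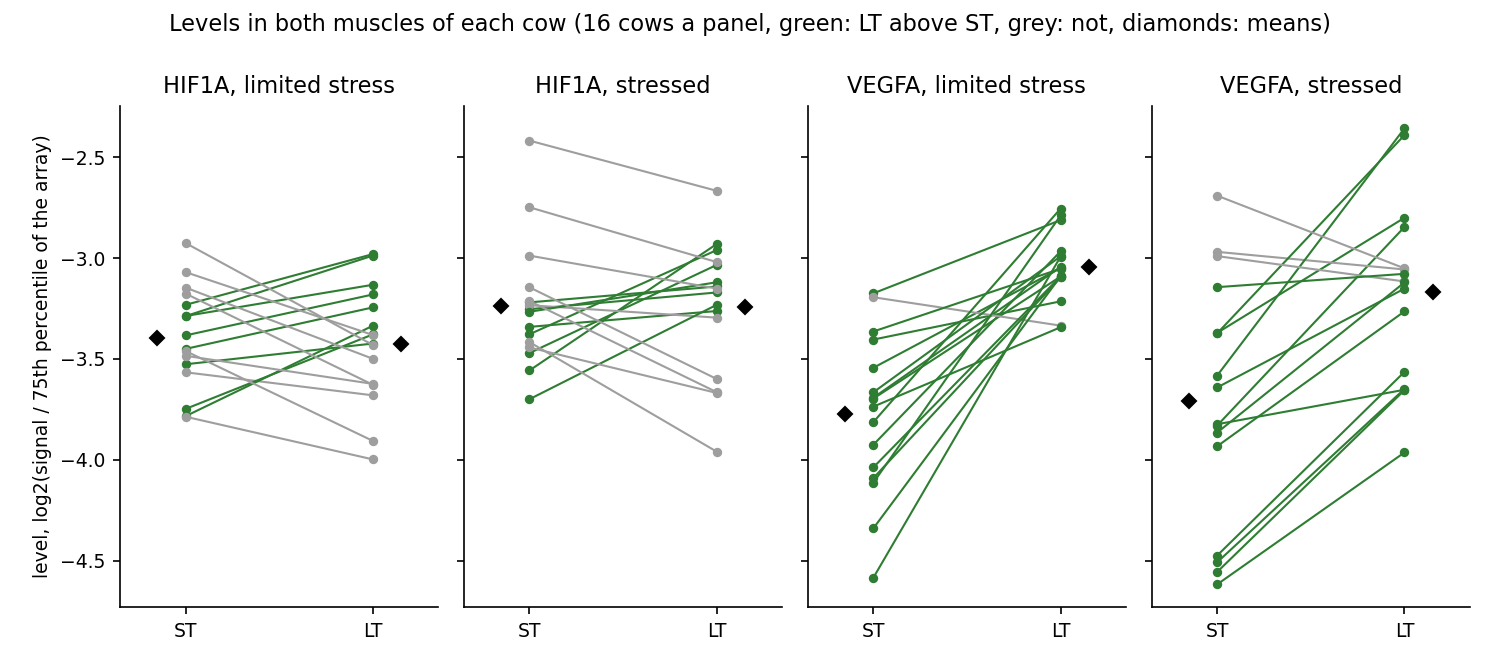
Levels of HIF1A and VEGFA in the ST and the LT joined for each cow, 16 cows per panel, on the log2 scale of signal over the 75th percentile, green where the LT was higher, with diamonds at the group means. The VEGFA lines rise towards the LT in 15 of 16 limited stress cows and in 13 of 16 stressed cows, and the HIF1A lines rise in 8 of 16 in each panel.

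Neither member passed the test for the effect of stress. HIF1A in the LT was -3.40 at the median of the limited stress cows (range -4.00 to -2.98) and -3.16 in the stressed cows (range -3.96 to -2.67). Of the stressed cows, 12 of 16 were above the median of the other group, but 13 of 16 were within its range. The log2 fold change was 0.18 (1.14-fold, SE 0.11, 95% CI -0.05 to 0.41, adjusted p = 0.436), in a comparison where 2.2% of transcripts were called higher and 1.53% lower. The control features as the scaling left 26 of 35 calls higher in place of 95 of 161, moved the median of all transcripts from -0.05 to -0.23, and gave 0.0059 for HIF1A. In the ST the medians were -3.42 and -3.26, 12 of 16 stressed cows were again above the limited stress median, and the log2 fold change was 0.16 (1.12-fold, 95% CI -0.05 to 0.37, adjusted p = 0.436), with 1.48% of transcripts called higher and 2.12% lower (3.6% in all). These were 63 higher of 153 calls, against 33 of 38 by the control features, 68 of 100 by quantile normalization and 79 of 87 on unscaled arrays. The estimate was above 0 on all 4 LT slides (0.01 to 0.34) and on 4 of 5 ST slides (-0.03 to 0.37). Stress was unevenly spread over the ST slides, so slide and stress are partly confounded there. The slide with 0.37 held 6 stressed and 1 limited stress array, and the slide with -0.03 held 1 and 3. By the main scaling, the intervals exclude an increase of more than 1.33-fold in the LT and 1.29-fold in the ST, and they include 0. These limits hold for that fit only, since the alternatives gave estimates of up to 0.26 in the LT and 0.31 in the ST. The difference between the muscles in the response was 0.03 (95% CI -0.28 to 0.33, adjusted p = 0.999), where no transcript was called (0%) and 284 of 10492 probes had an unadjusted p under 0.05.

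VEGFA in the LT had a median of -3.05 under limited stress and -3.12 in stressed cows, with a log2 fold change of -0.13 (0.917-fold, SE 0.12, 95% CI -0.37 to 0.12, adjusted p = 0.643). In the ST the medians were -3.72 and -3.73, and the log2 fold change was 0.06 (1.04-fold, SE 0.18, 95% CI -0.30 to 0.42, adjusted p = 0.879). Stressed cows fell on both sides of the narrow limited stress range in the LT, and 9 of 16 were within it. The values within slides went both ways, from -0.49 to 0.17 in the LT and from -0.95 to 0.90 in the ST. The ST slide with 0.90 held 1 stressed array. An increase of VEGFA by more than 1.09-fold in the LT or 1.34-fold in the ST lies outside the intervals of the main scaling. The alternatives gave estimates from -0.30 to -0.08 in the LT and from 0.06 to 0.26 in the ST. The response did not differ detectably between the muscles (-0.19, 95% CI -0.62 to 0.25, adjusted p = 0.999).

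Within each diet, the stress effect on HIF1A was 0.15 and 0.21 in the LT and 0.12 and 0.20 in the ST, for the control diet first and the EP diet second. The corresponding values of VEGFA were -0.20 and -0.05 in the LT and 0.10 and 0.03 in the ST. Without the stressed cow that had the highest HIF1A level in the ST, the control diet value of HIF1A there was 0.0001. None of the 8 values was called, with adjusted p between 0.651 and 0.993. The calls over all transcripts were 1.09 and 1.16% in the LT and 2.57 and 0.777% in the ST. In the ST, most stressed arrays of the control diet shared no slide with limited stress arrays of that diet. Slide and stress were therefore largely confounded there. With the slide or the scan day as a block, HIF1A was -0.049 or -0.087 there, and the calls fell from 109 to 10 or 13. The interaction of stress and diet lay between -0.07 and 0.15 for both genes and muscles, with 95% intervals that reached from -0.79 to 0.65 for VEGFA in the ST. No transcript was called for this interaction (0%), with an unadjusted p under 0.05 at 276 LT and 491 ST probes.

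The EP diet changed neither gene detectably, and it changed no transcript of the array by this test (0%). An unadjusted p under 0.05 was found for 407 LT probes and 531 ST probes, and with the slide or the scan day as a block 2 transcripts were called in the ST, neither of them a member. HIF1A on the EP diet differed from the control diet by -0.02 in the LT (95% CI -0.25 to 0.21) and by -0.03 in the ST (95% CI -0.24 to 0.17). VEGFA differed by 0.00 in the LT (95% CI -0.25 to 0.25). In the ST, VEGFA was -3.85 at the median with the EP supplement and -3.56 without it, and all 16 EP values were within the control range of -4.62 to -2.69. This was the largest of the 4 diet values (-0.23, 95% CI -0.60 to 0.13, unadjusted p = 0.194, adjusted p = 0.949).

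Of the other VEGF ligands, VEGFB, VEGFC, FIGF (VEGFD) and PGF were measured, and the receptors of the family were not analysed here. VEGFB, which favours fatty acid uptake by the endothelium and was named from the description of probe TC364083, was higher in the LT under limited stress (1.25-fold, log2 fold change 0.32, adjusted p = 0.0164). VEGFA and VEGFB were thus 2 of 5 ligands called higher in the LT and none was called lower. The median of the 5 ligands was 0.19 beside -0.04 over all 4327 transcripts, of which 16% were called higher and 22.1% lower. The lymphatic ligands VEGFC (0.19, adjusted p = 0.261) and FIGF (-0.06, adjusted p = 0.788) were not called.

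PGF, the placental growth factor that binds the same receptor as VEGFB, was the single one of the 5 ligands called for stress. Over all transcripts, 3.73% were called for stress in the LT and 3.6% in the ST. In the LT the median level of PGF was -3.48 in limited stress cows (-4.19 to -2.87) and -2.89 in stressed cows (-3.48 to -2.35). The stressed median lay at the upper edge of the other group. PGF rose 1.40-fold in the LT (log2 fold change 0.49, SE 0.12, adjusted p = 0.0116) and 1.47-fold in the ST (0.56, SE 0.13, adjusted p = 0.0118), where the medians were -3.37 and -2.82. With the slide or the scan day as a block the ST value was not called (0.51 with adjusted p = 0.123 and 0.48 with adjusted p = 0.117), and scaling by the control features ended the call in both muscles (0.31 with adjusted p = 0.409 in the LT, 0.65 with adjusted p = 0.333 in the ST). Between the muscles PGF differed by -0.03 under limited stress (adjusted p = 0.860).

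HIF1A was the single subunit of the factor measured, next to 3 genes of its regulation. The ubiquitin ligase subunit CUL2 and the coactivator CREBBP were called in no comparison of muscle or stress, with log2 fold changes between -0.09 and 0.13. HSPCA, the chaperone HSP90AA1, was called lower in the LT under limited stress (-0.18, adjusted p = 0.0317), and this sign turned when arrays were left unscaled or divided by the control features. The 4 genes had a median of -0.01 between the muscles.

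Among 16 HIF targets of glycolysis and lactate handling, 1 was called higher under stress in both muscles. Over all transcripts, 2.2% were called higher in the LT and 1.48% in the ST. PFKFB3, the kinase that makes the activator of phosphofructokinase, was 2.62 at the median in the LT of limited stress cows (1.39 to 4.32) and 4.19 in stressed cows (2.34 to 5.56). It rose 2.98-fold in the LT (log2 fold change 1.57, SE 0.28, adjusted p = 0.000362) and 1.996-fold in the ST (SE 0.18, adjusted p = 0.000872). The glucose transporter SLC2A3 fell by 0.54 in the LT (adjusted p = 0.0178), a call lost with the cow as a replicate block (adjusted p = 0.163), with the control features (-0.72, adjusted p = 0.109) and without the filter on dim probes (-0.16, adjusted p = 0.656). The other 14 genes in the LT and 15 in the ST were not called, lactate dehydrogenase LDHA included (-0.0093 and -0.072), and the medians of the list were -0.08 in both muscles beside -0.05 and -0.06 over all transcripts.

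Between the muscles under limited stress, 1 of these 16 genes was higher and 6 were lower in the LT, with a median of -0.15. Over all transcripts, 16% were called higher and 22.1% lower (38.1% in all). LDHB, the heart-type lactate dehydrogenase, was 1.44-fold higher in the LT (log2 fold change 0.52, adjusted p = 0.0161). PFKFB3 was lower (-1.09, adjusted p = 0.000226), as was SLC16A3, a lactate exporter (-0.45, adjusted p = 0.0123), which lost its call on unscaled arrays (-0.26) and with the control features (-0.12). The smaller differences of the glycolytic enzymes PKM2 (-0.24), ALDOA (-0.16) and TPI1 (-0.16) turned their sign when the arrays were divided by the control features. That scaling moved the median of all transcripts from -0.04 to 0.28, and the calls from 691 higher of 1649 to 1223 higher of 1311. On unscaled arrays 1449 of 1800 calls were higher and the median was 0.14. VEGFA was 1.05 with the control features and 0.91 unscaled. In stressed cows the calls were 686 higher of 1550 by the main scaling, 160 of 289 with the control features and 800 of 1319 unscaled.

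Of 8 other HIF targets, 2 were called higher and 1 lower in the LT than in the ST under limited stress. This was near the share over all transcripts, of which 38.1% were called in this comparison. The cytokine MIF (0.43, adjusted p = 0.0346) and the growth factor TGFB3 (0.48, adjusted p = 0.0603) were the higher ones, TGFB3 without a call when the slide was a random block (adjusted p = 0.159). EPO was called lower in the LT (-0.68, adjusted p = 0.0297), on a probe above background on 8 of 16 LT and 11 of 16 ST arrays, and not called with the control features (-0.35) or with cow and slide as blocks (-0.59). The list median was -0.03.

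Among 17 other genes of angiogenesis, 3 were called for stress in the LT and none in the ST, beside 3.73% and 3.6% of all transcripts. DLL4, the Notch ligand of sprouting endothelial cells, which VEGFA signalling induces, fell in the LT from a median of -3.68 (-4.36 to -2.73) to -4.43 (-5.89 to -3.59). The log2 fold change was -0.87 (0.547-fold, SE 0.17, adjusted p = 0.00106), and in the ST it was -0.08 (95% CI -0.40 to 0.24, adjusted p = 0.832). THBS1, an inhibitor of angiogenesis, rose 1.78-fold in the LT (0.83, adjusted p = 0.00337) and measured 0.62 in the ST (adjusted p = 0.191). HEYL, a transcriptional repressor downstream of Notch, rose 1.54-fold in the LT (0.62, adjusted p = 0.00244) and measured 0.52 in the ST (adjusted p = 0.114). With the control features neither THBS1 (0.66, adjusted p = 0.295) nor HEYL (0.44, adjusted p = 0.409) was called in the LT, whereas DLL4 was called in all 8 alternatives, between -1.05 and -0.63.

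The effect of stress on DLL4 differed between the muscles by -0.79 when the cow was a replicate block (adjusted p = 0.0365), and the same value was not called without the block (adjusted p = 0.999). With cow and slide as blocks it was -0.82 (adjusted p = 0.0581). DLL4 was 0.70 between the muscles under limited stress and -0.10 in stressed cows (adjusted p = 0.684). The difference in response was called neither with nor without the block for PGF (-0.07), PFKFB3 (0.58), SLC2A3 (-0.20), THBS1 (0.21) or HEYL (0.10), so a call in 1 muscle alone is not a difference between muscles for these genes. The block raised the number of transcripts called for stress in the LT from 161 (3.73%) to 242, and in the ST it went from 153 (3.6%) to 146.

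Between the muscles, the same list of 17 had 4 genes higher in the LT under limited stress and none lower. Over all transcripts, 16% were called higher and 22.1% lower (38.1% in all). The list median was 0.11 beside -0.04. HEYL was 2.23-fold higher (log2 fold change 1.16, adjusted p = 2.16e-08) and ADAMTS1, an antiangiogenic protease, 1.69-fold (0.75, adjusted p = 0.000372). DLL4 was 1.62-fold higher (0.70, adjusted p = 0.000592) and EPHB4, a receptor of venous endothelium, 1.41-fold (0.49, adjusted p = 0.00470).

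The markers of endothelium, fibre type and other cells moved with the difference between the muscles as follows, and their part in the VEGFA difference was not tested. Of 5 endothelial markers, ESAM (0.65, adjusted p = 0.000128) and PECAM1 (0.35, adjusted p = 0.0534) were higher in the LT under limited stress and none was lower. Their median was 0.35 beside -0.04 over all transcripts, of which 16% were called higher and 22.1% lower (38.1% in all). PECAM1 was not called with the slide as a random block (0.33, adjusted p = 0.132). TIE1, also counted among the angiogenesis genes, measured 0.38 without a call (adjusted p = 0.112). The log2 of their summed level ranged from -0.06 to 0.97 in the LT and from -0.71 to 0.58 in the ST. Of 9 slow fibre markers, TNNT1 (0.93), CSRP3 (0.58), ATP2A2 (0.52, adjusted p = 0.0540, and 0.103 with the slide as a random block) and TNNC1 (0.51) were higher in the LT, whereas MB (-0.15) and MYH7 (-0.11) were lower by the main scaling and higher when arrays were divided by the control features or left unscaled. The slow fibre sum was between 8.49 and 8.88 in the LT (median 8.60) and between 7.77 and 8.86 in the ST (median 8.42). Outlier spots were left out, so some ST sums lacked a marker, such as TNNC1, which was present on 15 of 16 arrays. The ST low is therefore not a measure of slow fibre content.

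Of 8 fast fibre markers, 7 were called lower in the LT and none higher, beside 22.1% of all transcripts called lower. PVALB, the calcium buffer of fast fibres, was far lower (log2 fold change -4.28, adjusted p = 5.95e-08). MYH1 (-0.20), ATP2A1 (-0.19), TNNC2 (-0.18), MYL1 (-0.16) and TPM1 (-0.14) differed little, and their sign turned with the control features as the scaling. On unscaled arrays none of these small differences was called (MYH1 -0.020, ATP2A1 -0.0032, TNNC2 -0.0006, MYL1 0.019, TPM1 0.045). The count of lower calls among the fast fibre markers thus depended on the scaling. The fast fibre sum was between 8.82 and 9.26 in the LT (median 9.06) and between 7.31 and 9.37 in the ST (median 9.17). Some ST sums again lacked markers left out as outlier spots, with ATP2A1 present on 12 and ACTN3 on 13 of 16 arrays. The ST low is therefore not a measure of fast fibre content. The sums of both fibre lists were thus above the 75th percentile on every array, whereas single markers could lie below it, such as PVALB, whose limited stress medians were -5.39 (LT) and -1.06 (ST). No tested marker of adipocytes (5), fibroblasts (5) or blood and leukocytes (2) was called between the muscles, and their sums overlapped between the muscles. No marker of these 6 lists was called for stress in either muscle, and the sums of stressed and limited stress cows overlapped.

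Of the regulators of VEGFA in oxidative muscle, 4 were tested and 1 was called between the muscles under limited stress, beside 38.1% of all transcripts. PPARGC1A itself measured 0.16 (SE 0.27, adjusted p = 0.811), PPARA 0.04 and SIRT1 0.05, without a call. PRKAA1, a catalytic subunit of the energy sensor AMPK, was lower in the LT (-0.44, adjusted p = 0.000600), a call lost with the control features (-0.12, adjusted p = 0.636). In stressed cows SIRT1 was called higher (0.21, adjusted p = 0.0390) and PRKAA1 lower (-0.25, adjusted p = 0.0585) in the LT. None of the 4 was called for stress.

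**Figure D3:**
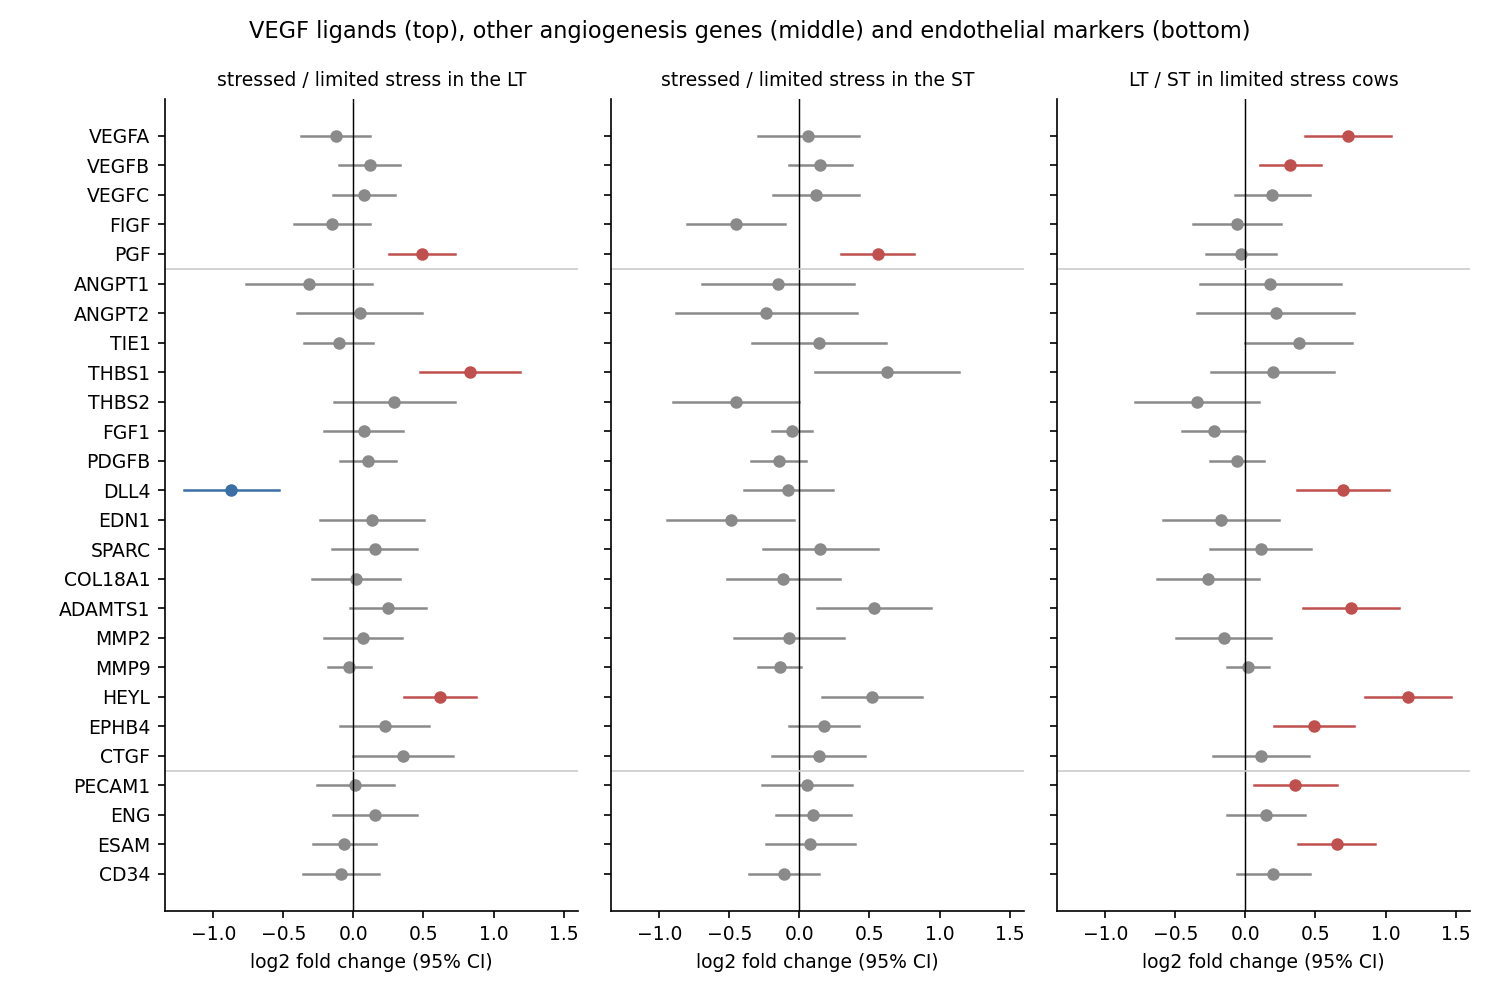
Log2 fold changes with their 95% CI for VEGF ligands, other angiogenesis genes and endothelial markers, for stressed over limited stress cows in the LT and in the ST and for the LT over the ST in limited stress cows, with red for called higher, blue for called lower and grey for not called (TIE1, in both of the last lists, is drawn once). VEGFA is called between the muscles (0.73) and not for stress (-0.13 and 0.06), whereas PGF is called for stress (0.49 and 0.56) and not between the muscles (-0.03).

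Across cows, the level of VEGFA in the LT went with that in the ST of the same animal. The deviations from the means of the groups of stress and diet had a Pearson r of 0.49 over 32 cows (permutation p = 0.00479, adjusted over 4 relations 0.0192) and a Spearman rho of 0.41 (p = 0.0198, adjusted 0.0790). Without the 2 cows farthest from the median of the LT, r was 0.46. With the means of the slides removed too, r was 0.42 (adjusted p = 0.0369). Quantile normalization gave 0.34, which did not pass (adjusted p = 0.112).

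HIF1A in the LT and in the ST had an r of 0.35 (permutation p = 0.0524, adjusted 0.0698) and a rho of 0.27 (p = 0.138, adjusted 0.184), and r was 0.27 without the 2 farthest cows. With the slide means removed r was 0.64 (adjusted p = 0.00036), and by quantile normalization it was 0.28 (adjusted p = 0.157). The control features as the scaling gave 0.14 (adjusted p = 0.449).

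A relation of HIF1A with VEGFA across cows was not established by the main scaling. In the LT, r was -0.14 (permutation p = 0.456, adjusted 0.456) and rho was -0.12 (p = 0.524, adjusted 0.524). In the ST, r was -0.35 (p = 0.0489, adjusted 0.0698) and rho was -0.30 (p = 0.0923, adjusted 0.184), and r was -0.15 without the 2 cows farthest from the median of HIF1A, so the value rested on these cows. The sign of this relation depended on the scaling. With the control features in place of the 75th percentile, r was 0.65 in the LT (adjusted p = 0.0002) and 0.44 in the ST (adjusted p = 0.0156). This scaling divides both genes of an array by the same value, which is near background and ran from 1.73 to 6.36 units. The part of this shared divisor in r was not tested. With the slide means removed it was 0.12 in the LT and -0.25 in the ST, and neither passed.

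**Figure D4:**
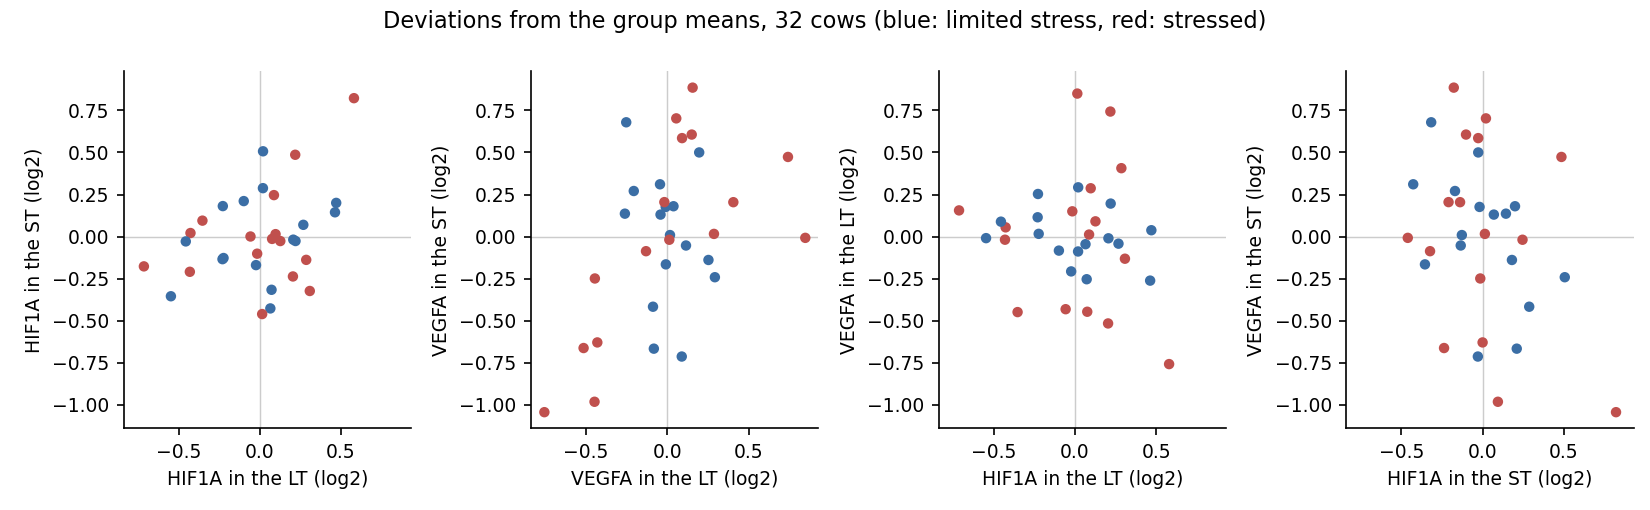
Deviations from the group means of stress and diet for 32 cows, on the log2 scale, for HIF1A in the LT and the ST, VEGFA in the LT and the ST, and HIF1A with VEGFA within the LT and within the ST, with blue for limited stress and red for stressed cows. VEGFA in the LT and the ST rise together (r = 0.49), whereas HIF1A with VEGFA gives -0.14 in the LT and -0.35 in the ST.

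The transcripts most like each member over the 64 arrays were sought among 1919 other named genes, as Pearson r of the deviations from the 8 group means, a description over arrays that share cows and slides. Among the 5 genes nearest to VEGFA were GPT, which makes alanine from pyruvate (r = 0.72), C1QBP of the mitochondrial matrix (0.68), SUCLG2 of the citrate cycle (0.65) and NDUFS1 of respiratory complex I (0.64). Within the muscles these values were between 0.49 and 0.78 in the LT and between 0.57 and 0.84 in the ST. With slide means removed, GPT (0.76) and NDUFS1 (0.68) were still among the first 5, where ANXA3 and PPARGC1A (0.67) appeared too.

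The genes nearest to HIF1A were ATP1B3, a subunit of the sodium pump (r = 0.72), ADFP, the lipid droplet protein perilipin 2 (0.68), PICALM, an endocytosis adaptor (0.65), LOXL4, a lysyl oxidase of the matrix (0.65), and F2RL2, a thrombin receptor (0.64). These values were between 0.57 and 0.76 in the LT and between 0.56 and 0.74 in the ST. ADFP (0.74), ATP1B3 (0.66) and F2RL2 (0.61) were still among the first 5 with slide means removed, with TGFBR2 and ASB5.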

How the data were processed

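RNA of 64 muscle samples was hybridised to single-colour Agilent arrays. The authors read the arrays with Feature Extraction 10.1.1.1. Per the file headers, background and spatial trend had been removed from the deposited intensities, with surrogate values near background. They are neither scaled nor log2 transformed, so the normalization of the study's methods is not in them. Groups came from the sample labels.

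Signals were divided by the 75th percentile of the 13414 non-control spots of the array and log2 transformed, without outlier spots. The methods' scaling to control features was kept as an alternative, since their median signal was 1.73 to 6.36 units, near background. It used the 536 control features of these arrays, a number unlike that of the control probes in the methods. The methods' further division of each probe by its median over the arrays was not applied. The test took probes that 11 or more of the 32 arrays of a muscle measured well above background (10441 in the LT, 10305 in the ST, 10492 in either for the comparison of muscles) with limma 3.58.1 in R 4.3.3, on 4 groups per muscle or 8 groups over both, two-sided, with Benjamini-Hochberg adjustment over probes. The fits were tested on simulated data. Correlations used 100000 permutations. The numbers of the labels pair the muscles of a cow, whose deviations correlated between 0.106 and 0.768 for 32 of 32 cows. RefSeq names came from the assembly ARS-UCD2.0.

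The text names the members, all measured HIF regulators and VEGF ligands, up to 6 called genes of each other list and comparison, and the 5 genes most like each member. Members and lists were chosen with earlier results of these data known. The period of slaughter used in the methods' model was not used here. Some genes that met the rule for named genes are not reported here.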

Additional observations from a re-analysis of the deposited data

Results flagged for a closer look

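HIF1A in the ST of the stressed cows on the control diet had 1 array apart from the other 7, at -2.42 against a next value of -3.15 on the log2 scale. Chance alone sets about 1 in 20 such groups apart, and 16 groups were examined. Without this cow the log2 fold change of HIF1A for stress in the ST went from 0.16 to 0.099 over both diets and from 0.12 to 0.0001 on the control diet, and none of these values was called.

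The effect of stress on DLL4 differed between the muscles by -0.79 (log2, replicate block), with a fall in the LT (-0.87) and no call in the ST (-0.08). The main fit, without the block, did not call this difference, and neither did 6 of the 8 alternatives.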

How the results depend on the processing

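All 8 alternatives and all 32 fits without 1 cow called VEGFA higher in the LT under limited stress (0.57 to 1.05, and 0.67 to 0.80 without a cow). In stressed cows 7 of 8 did (0.40 to 0.61), with 0.59 by the control features and adjusted p = 0.110, and the range without a cow was 0.48 to 0.59. The replicate block gave 0.73 (adjusted p = 5.92e-07) and 0.54 (adjusted p = 0.000123), and beyond SLC2A3 for stress in the LT, EPO with the slide added, ATP2A2 with the slide added, MYH7 with the slide added, and DLL4 for the difference between muscles, where called transcripts went from 0 to 5, pairing changed no call of a named gene. No alternative called HIF1A or VEGFA for stress or diet. The cause of each change below was not tested, and arrays whose control features sit near background limit that scaling.

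Values near 0 changed sign. Between the muscles under limited stress HIF1A was 0.29 by the control features, 0.0044 by quantile and 0.15 unscaled. In stressed cows it was 0.046, 0.029 and 0.065, and 0.023 with the slide as a random block or 0.024 with the cow added. Its muscle by stress value was -0.25 by the control features and -0.088 unscaled. Its diet value was 0.18 in the LT and 0.035 in the ST by the control features, and in the ST 0.04 with slide and 0.054 with scan day as a block. Its stress by diet value was -0.25 by the control features in the LT, and by quantile -0.0092 in the LT and -0.0066 in the ST. Its stress value was -0.12 on the EP diet in the LT by the control features, and on the control diet in the ST -0.049 with slide and -0.087 with scan day. The VEGFA diet value in the LT was 0.20 by the control features, 0.10 with slide and 0.018 with scan day. Its stress by diet value by the control features was -0.16 in the LT and 0.0245 in the ST, and its stress value on the EP diet in the LT was 0.028 unscaled.

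Without 1 cow, HIF1A ran from -0.072 to 0.020 for diet in the LT and from -0.071 to 0.024 in the ST, from -0.066 to 0.0037 and from -0.050 to 0.033 between the muscles at limited stress and in stressed cows, from -0.019 to 0.064 for muscle by stress and from -0.043 to 0.14 for stress by diet in the LT. VEGFA ran from -0.054 to 0.061 for diet in the LT, from -0.0001 to 0.14 for stress in the ST, from -0.027 to 0.25 on the control diet and from -0.075 to 0.12 on the EP diet there, from -0.22 to 0.053 for stress by diet in the ST, and from -0.16 to 0.022 for stress on the EP diet in the LT.

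Between the muscles under limited stress, the control features turned HSPCA to 0.15, PKM2 to 0.075, ALDOA to 0.16, TPI1 to 0.27, MYH1 to 0.11, ATP2A1 to 0.18, TNNC2 to 0.080, MYL1 to 0.15, TPM1 to 0.185, MB to 0.14 and MYH7 to 0.27. Unscaled arrays gave HSPCA 0.0069, ALDOA 0.024, TPI1 0.034, MYL1 0.019, TPM1 0.045, MB 0.035 and MYH7 0.083. For muscle by stress, THBS1 was -0.063 by the control features, and HEYL was -0.18 by the control features and -0.016 unscaled. The correlation of HIF1A with VEGFA became 0.12 in the LT with slide means removed, and 0.65 in the LT and 0.44 in the ST by the control features. HIF1A in the LT with the ST passed at 0.64 with slide means removed, and VEGFA did not pass at 0.34 by quantile.

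Called transcripts for stress in the LT were 161, against 35 by the control features and 242 with the replicate block. In the ST they were 153, against 38 by the control features, 100 by quantile, 87 unscaled, 52 with slide and 71 with scan day. Between the muscles of stressed cows they were 1550, against 289 by the control features. For the diet in the ST they went from 0 to 2 with slide or scan day. By the control features, the stress calls within the control diet went from 47 to 16 in the LT and from 109 to 9 in the ST, and within the EP diet from 50 to 15 and from 33 to 19. The 109 calls in the ST were also 39 by quantile, 43 unscaled, 60 without the filter, 10 with slide and 13 with scan day.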
